A study of Mus musculus with 15 samples.

Results

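Iron, copper and zinc handling was followed in mouse intestinal organoids through 10 genes: Cybrd1, Slc11a2, Slc40a1, Heph, Tfrc, Fth1, Ftl1, Mt1, Mt2 and Slc39a4. They were chosen by name, out of 43629 genes in the count table, and their Ensembl identifiers were matched to mouse symbols. All 10 were found in both deposited tables and all passed the filter on low values in every comparison. In organoids deleted for Apc, 6 of the 10 were called lower and 1 higher than in WT, beside 14.1% and 12.2% of all genes tested. In organoids carrying the Ptprk-Rspo3 rearrangement 0 of the 10 were called against WT, where calls were rare over all genes (0.00625% higher and 0% lower).

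Absorptive cells of the proximal small intestine take up dietary iron at the lumen and release it to the blood at their base. Cybrd1 (duodenal cytochrome b) reduces ferric iron at the brush border, Slc11a2 (DMT1) carries ferrous iron into the cell, Slc40a1 (ferroportin) exports it, and Heph (hephaestin), a copper-dependent ferroxidase, oxidises it on the way out. Tfrc is the transferrin receptor, through which cells take up iron from plasma, and Fth1 and Ftl1 are the heavy and light chains of ferritin, the iron store. Mt1 and Mt2 are metallothioneins, small cysteine-rich proteins that bind zinc and copper, and Slc39a4 (ZIP4) imports zinc from the lumen. Iron regulatory proteins bind iron-responsive elements, short RNA stem-loops with a CAGTGN loop. Such binding blocks translation when the element lies before the coding sequence and stabilises the RNA when it lies after it. The factor Mtf1 drives metallothionein genes through metal response elements.

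Organoids are cultures of intestinal epithelium that hold stem cells and their differentiated progeny. The 15 RNA-seq libraries all came from mice of a mixed C57B6/129 background, and 13 of them fall into 3 groups. WT held 5 libraries. Of these, 4 were Apc flox/flox organoids, whose lines bear the numbers 1, 2, 5 and 6, and 1 came from dox-naive organoids, meaning that the doxycycline-driven Cas9 transgene had not been induced. Apc held 4 libraries of Apc delta/delta organoids from the lines with the same numbers. P-Rspo3 held 4 libraries with the Ptprk-Rspo3 fusion, labelled EN4d, EN15d, EN_M and EN_F, from cultures that the study describes as polyclonal and selected by withdrawal of RSPO1. WT was kept in ENR medium (EGF, Noggin and RSPO1) and both mutant groups in EN medium without RSPO1, so medium and genotype cannot be told apart in the comparisons with WT. P-Rspo3 came from doxycycline-treated organoids with the Cas9 transgene, while Apc and 4 of the 5 WT libraries came from Apc flox lines. The source of the organoids is therefore tied to genotype in Apc against P-Rspo3, and largely so in P-Rspo3 against WT. Animal ages were not given in the sources used here. The other 2 libraries, LIPO and NAIVE_F, were left out of every group. The genotype and medium fields of LIPO give dox-naive WT in ENR, but it is not among the 5 WT libraries that the choice of groups names and its title is not explained. The title of NAIVE_F and its genotype field, which gives P-Rspo3, disagree, and its 729 counts of Rspo3 lay within the P-Rspo3 range of 539 to 1079. With both placed by their genotype fields, 7 members were called lower in Apc against WT, since Slc40a1 was then called at -1.25, and 0 were called in P-Rspo3 against WT.

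Library totals of the 13 grouped libraries ran from 28902729 to 35528495 counts. Rspo3 had 0 or 1 count in each WT library, 7 to 57 in Apc and between 539 and 1079 in P-Rspo3. The Apc gene was counted as a whole at 9265 to 10953 in the Apc libraries and 4046 to 6810 in WT, and a count over the whole gene does not check a deletion inside it. The enterocyte list (12 genes, from Alpi to Anpep) summed to 3930 to 10660 FPKM in WT, 2855 to 6173 in P-Rspo3 and 153.9 to 186.2 in Apc. FPKM is the number of fragments scaled to transcript length and to library size. The proliferation list (10 genes) summed to 479.5 to 592.2 FPKM in WT, 443.2 to 606.2 in P-Rspo3 and 893.0 to 997.8 in Apc. Defining markers of other tissues were at or near 0, with the adult globins Hba-a1, Hba-a2, Hbb-bs and Hbb-bt at 0 in every grouped library and the fibroblast list (6 genes) summing to at most 0.311 FPKM. The immune list (6 genes) summed to 2.09 to 3.73 FPKM in WT, 1.80 to 3.05 in P-Rspo3 and 4.08 to 10.5 in Apc. The endothelial list (4 genes) summed to 0.289 to 0.389 FPKM in WT, 0.160 to 0.492 in P-Rspo3 and 1.17 to 2.07 in Apc, with Kdr at 0 throughout. Cdh5 was at 0 in every WT and P-Rspo3 library. In Apc against P-Rspo3 it was called higher, at a log2 fold change of 10.99, and Pecam1 was called lower, at -2.69. Pdgfra, the 1 fibroblast gene tested, was called higher in Apc, at 4.50 against WT and 3.26 against P-Rspo3.

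The sequence elements through which metals and iron are known to act on some members are shown first. Metal response element cores, written TGCACNC or TGCGCNC and searched on both strands, were looked for in the 250 bases before each RefSeq start (GRCm38.p6). The promoter table held 6 of the 10 members, namely Cybrd1, Fth1, Ftl1, Mt1, Mt2 and Tfrc. The Mt1 window, chr8:94178839-94179088 on the plus strand, held 1 core and the Mt2 window, chr8:94172368-94172617 on the plus strand, held 3. Both windows are shown, with the cores in capitals, because these were the most abundant members in WT and are known targets of Mtf1.
Mt1: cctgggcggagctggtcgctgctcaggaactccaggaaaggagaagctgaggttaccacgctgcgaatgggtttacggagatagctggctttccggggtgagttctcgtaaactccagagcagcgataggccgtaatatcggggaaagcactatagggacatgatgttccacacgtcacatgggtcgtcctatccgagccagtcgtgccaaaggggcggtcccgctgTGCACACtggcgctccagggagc
Mt2: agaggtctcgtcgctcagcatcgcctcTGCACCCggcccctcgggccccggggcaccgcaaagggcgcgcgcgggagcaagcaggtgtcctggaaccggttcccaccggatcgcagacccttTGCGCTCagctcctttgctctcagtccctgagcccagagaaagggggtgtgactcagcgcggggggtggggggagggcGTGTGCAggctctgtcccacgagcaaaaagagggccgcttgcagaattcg
One core or more was held by 21.4% of the 32851 promoters of this length and 3 or more by 1.26%. One of the 2 Tfrc starts had 2 cores, which overlap each other, and the windows of Cybrd1, Fth1 and Ftl1 had none. Of the 50 bases after each start, also searched once the first count was known, those of Mt1 added 2 cores and those of Mt2 added 1. That made 3 and 4 cores in 300 bases, counts reached by 1.97% and 0.517% of promoters. A match of these letters is a description and no proof of a bound site. The counts depend on the annotated start, and the start used in these organoids was not examined. They therefore do not rank the promoters of Mt1 and Mt2.

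Iron-responsive elements were searched in GENCODE transcripts as C, 5 bases, CAGTGN and 5 bases, with the flanking groups of 5 paired and G-T pairs allowed. The search found 7 elements in 4 members, listed here with the CAGTG of the loop in capitals.
Slc40a1: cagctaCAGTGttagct
Fth1: cttcaaCAGTGcttgaa
Ftl1: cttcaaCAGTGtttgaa
Tfrc, first: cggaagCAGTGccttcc
Tfrc, second: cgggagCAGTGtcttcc
Tfrc, the third: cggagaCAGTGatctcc
Tfrc, last: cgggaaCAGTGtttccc
The elements of Slc40a1 (chr1:45925471-45925487, minus strand), Fth1 (chr19:9982738-9982754, plus strand) and Ftl1 (chr7:45459785-45459801, minus strand) lie in the 5′ UTR. The 4 of Tfrc lie in its 3′ UTR between chr16:32631225 and chr16:32631732 on the plus strand. An element in the 5′ UTR was found in 0.142% and one in the 3′ UTR in 0.589% of 21901 protein-coding genes. No element of this form was found in the other 6 members. These include Slc11a2, some transcripts of which are known to carry an element, and a missing match says only that these letters were not found. The ferritin elements are the same over 16 of 17 bases, differing at C12T counted from 1 at the first base shown, Fth1 first.

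**Figure D1:**
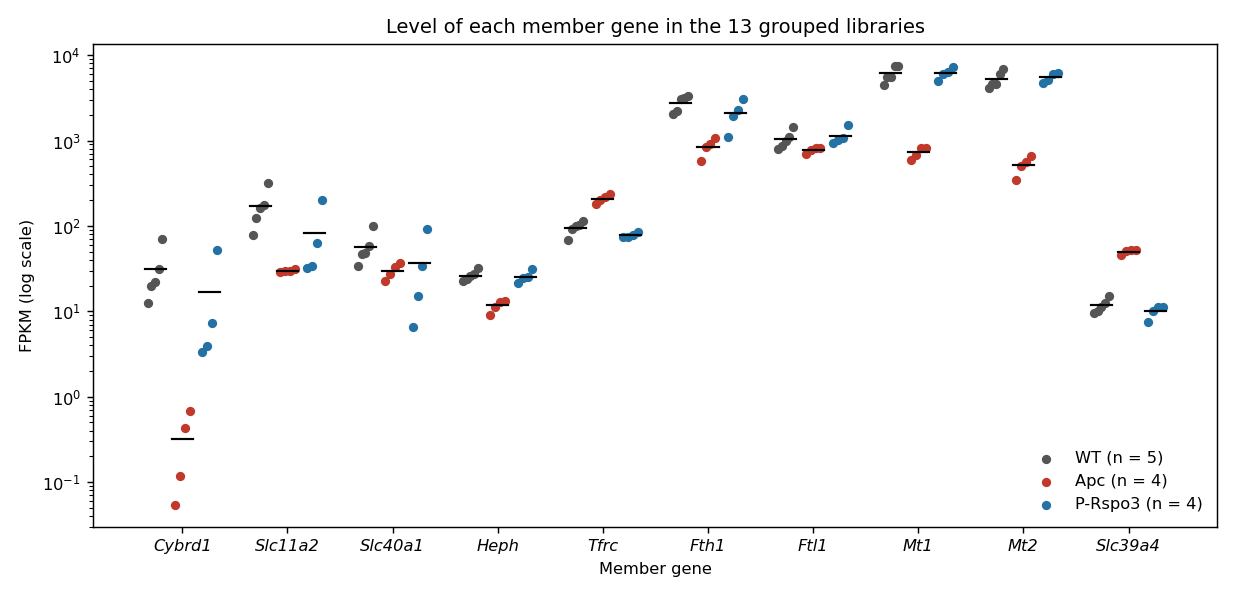
FPKM of each member (log scale) in each library, with a bar at the group mean; grey is WT (n = 5), red is Apc (n = 4) and blue is P-Rspo3 (n = 4). The red points of Mt1 and Mt2, between 347 and 824, lie below all grey and blue points, and the red points of Slc39a4 and Tfrc lie above them.

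In WT the members spanned from 11.8 ± 2.25 FPKM for Slc39a4 to 6100 ± 1310 for Mt1 (mean ± SD, n = 5, here and for the WT means that follow). By mean WT FPKM, Mt1 ranked 5, Mt2 ranked 8, Fth1 ranked 18 and Ftl1 ranked 70 among 43437 genes. Mt1 and Mt2 together took 0.390% to 0.634% of all counts in WT, 0.438% to 0.611% in P-Rspo3 and 0.0419% to 0.0649% in Apc. The order in WT was Mt1, Mt2 (5276 ± 1180), Fth1 (2761 ± 578), Ftl1 (1032 ± 253), Slc11a2 (172 ± 88.9), Tfrc (95.2 ± 17.1), Slc40a1 (57.1 ± 25.0), Cybrd1 (31.2 ± 22.7), Heph (26.2 ± 3.68) and Slc39a4. Among neighbours in this order, the WT libraries of Mt1 and Mt2 overlapped, as did those of Slc11a2 and Tfrc, of Tfrc and Slc40a1, of Slc40a1 and Cybrd1, and of Cybrd1 and Heph. Levels between genes depend on the length used. With counts scaled to library size (CPM) per kilobase of all annotated exons in place of FPKM, Mt2 stood above Mt1 in all 3 groups, and Slc40a1 fell below Cybrd1 and Heph in WT.

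The largest change of the 10 was in Cybrd1 (ENSMUSG00000027015, chr2:71117923-71142926, plus strand), the ferric reductase. It stood at 31.5, 12.6, 70.0, 19.6 and 22.1 FPKM in WT lines 1, 2, 5 and 6 and the dox-naive library. The same 4 lines after deletion of Apc had 0.0541, 0.117, 0.677 and 0.433 FPKM, from 11, 21, 132 and 91 counts. Every Apc library therefore lay far below every WT library, although WT itself spanned 5.55-fold. The log2 fold change of Apc against WT was -6.90 ± 0.78 (edgeR quasi-likelihood test, adjusted p = 2.3e-05; errors of log2 fold changes here are standard errors). A drop of this kind in bulk RNA can come from fewer cells of a type or from less RNA per cell, and these cannot be told apart.

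Slc11a2 (ENSMUSG00000023030, chr15:100387898-100425072, minus strand), the ferrous iron importer, had 176, 164, 315, 78.9 and 124 FPKM in the WT libraries in the same order. In Apc it had 28.5, 30.0, 29.3 and 30.9 FPKM. The WT libraries were widely spread and the Apc libraries lay within 1.08-fold of each other, with no overlap between the groups. The log2 fold change was -2.89 ± 0.39 (edgeR, adjusted p = 9.3e-05), and the change within a line ran from -1.56 in line 6 to -4.03 in line 5.

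The exporter Slc40a1 (ENSMUSG00000025993, chr1:45908068-45926523, minus strand) moved less. Its WT values were 99.3, 48.4, 57.4, 33.8 and 46.6 FPKM and its Apc values 36.6, 27.4, 22.4 and 32.8 FPKM, so the groups overlapped. The log2 fold change was -0.96 ± 0.30 (edgeR, adjusted p = 0.0158), under the fold required for a call. The level was lower in 3 of 4 lines and stood at a log2 ratio of 0.0449 in line 6. With all 3 groups in 1 fit the adjusted p was 0.185, the highest of 22 settings, and the lowest was 0.00152. Without WT line 6, Apc line 1 or the dox-naive library the log2 fold change of Slc40a1 was -1.14, -1.09 and -1.06, and the gene was called.

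Heph (ENSMUSG00000031209, chrX:96455359-96574485, plus strand), the ferroxidase that acts beside the exporter, held a narrow range in each group, 22.5 to 31.9 FPKM in WT and 9.15 to 13.4 FPKM in Apc. It was lower in 4 of 4 lines, with a log2 fold change of -1.47 ± 0.14 (edgeR, adjusted p = 8.1e-06).

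Tfrc (ENSMUSG00000022797, chr16:32608920-32632794, plus strand), which brings in transferrin-bound iron, went the other way. It had 101, 102, 113, 92.7 and 67.6 FPKM in WT and 235, 218, 180 and 201 FPKM in Apc, with all Apc libraries above all WT libraries. The fit on counts gave a log2 fold change of 0.82 ± 0.16 (edgeR, adjusted p = 0.0013), below the fold threshold. On log2(FPKM + 1) the limma estimate was 1.14 (adjusted p = 7.94e-05, in a range of 7.3e-06 to 0.0050 over 22 settings), which passed it. On that scale the median of all genes tested stood at 0.17 rather than at 0.00058.

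The ferritin chains changed unequally, and only that of Fth1 (ENSMUSG00000024661, chr19:9980598-9985098, plus strand) was a call. Fth1 had 3179, 2237, 3061, 2040 and 3288 FPKM in WT and 576, 844, 1064 and 901 FPKM in Apc, without overlap. Its log2 fold change was -1.99 ± 0.21 (edgeR, adjusted p = 1.5e-05). Ftl1 (ENSMUSG00000050708, chr7:45457944-45459884, minus strand) had 1099, 981, 789, 860 and 1432 FPKM in WT and 694, 822, 781 and 825 FPKM in Apc. The Ftl1 groups overlapped in FPKM but not in TMM-scaled CPM, where WT had 681 to 1172 and Apc 468 to 564. Its log2 fold change was -0.70 ± 0.16 (edgeR, adjusted p = 0.0026), under the fold threshold, and limma on log2(FPKM + 1) gave -0.37 with adjusted p = 0.069, the highest of 22 settings (lowest 3.2e-05). The Fth1 to Ftl1 ratio of FPKM was 2.74 ± 0.683 (SD, n = 5) in WT and 1.08 ± 0.218 (SD, n = 4) in Apc, with P-Rspo3 between them at 1.82 ± 0.464 (SD, n = 4), a description within libraries. The 4 P-Rspo3 libraries (1.17 to 2.24) lay below the WT libraries (2.28 to 3.88), but only just, and this was not tested. NAIVE_F, in no group but P-Rspo3 by its genotype field, had 3.45, inside the WT range. EN15d, at 1.17, lay inside the Apc range of 0.831 to 1.36. Counts on ferritin pseudogenes were low, 25 to 91 for Ftl1-ps1 and 0 to 5 for Ftl1-ps2, Ftl2-ps and Fth-ps2. The treatment of reads with several matches was not given, so these counts do not show how much signal was lost to shared sequence.

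The metallothioneins Mt1 (ENSMUSG00000031765, chr8:94179082-94180327) and Mt2 (ENSMUSG00000031762, chr8:94172664-94173568), neighbours on the plus strand, both fell. Mt1 had 7474, 4472, 5564, 5564 and 7424 FPKM in WT and 599, 824, 814 and 676 FPKM in Apc. Mt2 had 6933, 4135, 4578, 4653 and 6080 FPKM in WT and 347, 566, 653 and 496 FPKM in Apc. Neither gene had any overlap between the groups, and in both the spread within a group was small beside the distance between them. The log2 fold change was -3.37 ± 0.18 for Mt1 (edgeR, adjusted p = 1.4e-07) and -3.64 ± 0.22 for Mt2 (edgeR, adjusted p = 3.0e-07), which correspond to 10.3-fold and 12.5-fold lower levels. By FPKM rank Mt1 moved from 5 in WT to 91 in Apc and Mt2 from 8 to 138.

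Slc39a4 (ENSMUSG00000063354, chr15:76612383-76617384, minus strand), the luminal zinc importer, was the member called higher. It had 11.2, 15.2, 12.6, 9.55 and 10.2 FPKM in WT and 51.9, 45.6, 52.2 and 50.2 FPKM in Apc. The Apc libraries lay within 1.15-fold of each other and all stood well above WT. The log2 fold change was 1.77 ± 0.13 (edgeR, adjusted p = 1.1e-06), or 3.42-fold.

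For Apc against WT the count of members was thus 1 called higher and 6 called lower, where a call needed an adjusted p below 0.05 together with a log2 fold change beyond 1 in either direction. Among all 16749 genes tested, 12.2% were called higher and 14.1% lower. On adjusted p alone, 2 members were higher and 8 lower, beside 30.0% and 29.0% of all genes. The median log2 fold change was -1.73 over the members and 0.00058 over all genes tested. In TMM-scaled CPM, 9 of the 10 had no overlap between the groups, 7 lower and 2 higher in Apc, and Slc40a1 was the exception. Over all genes tested, 25.0% did not overlap and were lower and 26.8% did not overlap and were higher. All 12 genes of the enterocyte list, 6 of 7 of the goblet list and 5 of 7 of the enteroendocrine list were called lower in the same comparison, 6 of 8 of the Paneth list were called lower and 2 higher, and the median of the enterocyte list was -7.77. The proliferation list, higher in Apc by summed FPKM, had 1 of 10 genes called higher and 0 called lower. On adjusted p alone 9 of its genes were higher, and its median was 0.59. The summed immune and endothelial lists were higher in Apc, as given above, but their tested genes were called in both directions, 1 higher and 2 lower of 3 immune genes and 1 higher and 1 lower of 2 endothelial genes. The part of this shift in marker levels in the members' changes was not tested.

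**Figure D2:**
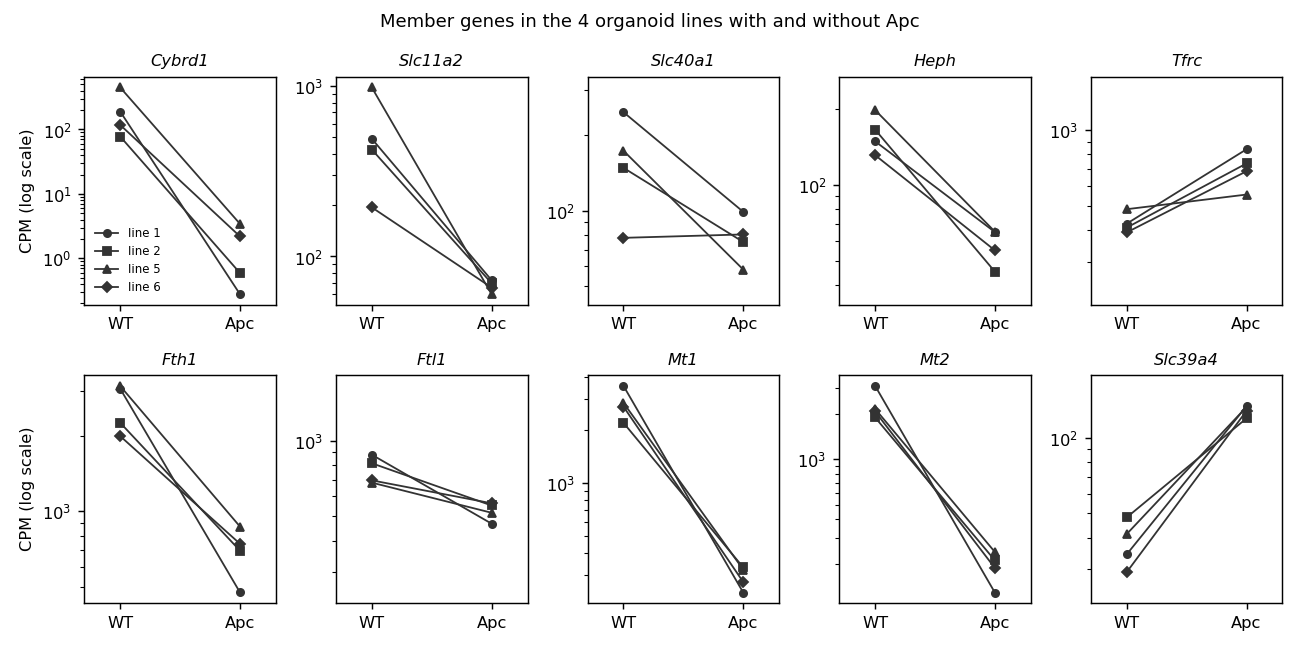
TMM-scaled CPM of each member (log scale) in lines 1, 2, 5 and 6, with WT at the left and Apc at the right of each panel; each line of the plot joins libraries with the same number. In 9 panels all 4 lines run the same way, and in the Slc40a1 panel line 6 is flat at a log2 ratio of 0.0449.

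Within the same line, 7 members were lower after deletion in 4 of 4 lines and Tfrc and Slc39a4 were higher in 4 of 4. The share of all genes with such agreement was not computed. It is at least the 25.0% lower and 26.8% higher that had no overlap between the groups, so agreement in 4 of 4 lines was common. The log2 ratio of Mt1 ran from -3.89 to -2.72 and that of Mt2 from -4.57 to -3.16, both lowest in line 1. The log2 ratio of Cybrd1 ran from -9.41 to -5.75 and that of Tfrc from 0.193 to 0.982.

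The P-Rspo3 organoids, which also grow without added RSPO1, overlapped WT in every storage and zinc gene among the members. Mt1 had 6081, 5014, 6430 and 7340 FPKM in EN4d, EN15d, EN_M and EN_F, and Mt2 had 5065, 4762, 6179 and 6011, both inside the WT span. The log2 fold changes against WT were 0.03 ± 0.18 for Mt1 (edgeR, adjusted p = 0.983) and 0.06 ± 0.17 for Mt2 (edgeR, adjusted p = 0.930). Slc39a4 had 10.1, 11.1, 11.1 and 7.54 FPKM, with a log2 fold change of -0.28 ± 0.15 (edgeR, adjusted p = 0.446). Heph at 21.3 to 31.5 FPKM, Ftl1 at 926 to 1503 and Tfrc at 73.7 to 84.7 also overlapped WT, with log2 fold changes of -0.05 ± 0.15, 0.13 ± 0.21 and -0.28 ± 0.15. Fth1 had 1934, 1085, 2284 and 3067 FPKM, a 2.83-fold span with EN4d and EN15d below the WT minimum of 2040, and a log2 fold change of -0.39 ± 0.29. These estimates do not show that the groups are alike, and their errors leave room for small differences.

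The iron uptake and export genes were the exception within P-Rspo3, where the 4 libraries differed widely. Cybrd1 had 7.34, 3.38, 51.9 and 3.89 FPKM in EN4d, EN15d, EN_M and EN_F. Slc11a2 had 63.0, 34.0, 199 and 31.8 FPKM, and Slc40a1 had 33.5, 6.47, 91.8 and 15.1. EN_M was highest in all 3 and lay within the WT span. In FPKM, EN4d, EN15d and EN_F lay below the lowest WT value of each of the 3 genes. Those lowest values were 12.6 FPKM for Cybrd1 in line 2, and 78.9 for Slc11a2 and 33.8 for Slc40a1 in line 6. In TMM-scaled CPM, Slc40a1 in EN4d lay inside the WT span, at 89.7 beside 78.0 to 246. EN15d was lowest in Cybrd1 and Slc40a1, and EN_F was lowest in Slc11a2. The spread was 15.4-fold for Cybrd1, 6.24-fold for Slc11a2 and 14.2-fold for Slc40a1, beside 1.46-fold for Mt1. The log2 fold changes against WT were -0.93 ± 0.83, -1.10 ± 0.63 and -0.62 ± 0.65 (edgeR, adjusted p = 0.657, 0.481 and 0.714). Without EN_M they were -2.69, -2.15 and -1.58, with adjusted p of 0.108, 0.109 and 0.224, and over all settings the adjusted p ran from 0.108 to 0.937, 0.109 to 0.774 and 0.224 to 0.895. None was called with or without that library.

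Factors of the proximal intestine were set beside this spread. The list (Gata4, Onecut2 and Pdx1) was chosen after the values were seen, and was read because duodenal iron uptake genes are known to be graded along the gut. Pdx1, a factor of duodenal epithelium, had 2.11, 0.436, 10.1 and 1.07 FPKM in EN4d, EN15d, EN_M and EN_F, the same order as Slc40a1. Onecut2 had 14.4, 5.15, 14.8 and 9.68 FPKM and Gata4 had 86.3, 57.5, 96.2 and 73.4, again with EN_M highest and EN15d lowest. Both stood close in EN4d and EN_M, where Cybrd1 had 7.34 and 51.9 FPKM. In WT, Pdx1 was 3.66 to 10.3 FPKM with its top value in line 1, which also had the highest Slc40a1. Line 5 had the highest WT Cybrd1 and Slc11a2, and its Pdx1 was 5.02 FPKM. The distal markers Fabp6 and Slc10a2 were low, and within P-Rspo3 both were highest in EN15d. Fabp6 had 1.23 FPKM there and at most 0.242 in the other 3 libraries, and Slc10a2 had 0.835 against 0.0808 to 0.381. In WT the pair summed to 0.232 to 0.658 FPKM. In Apc, Slc10a2 was called higher than in WT, 2.30-fold (edgeR, adjusted p = 0.0037) and Fabp6 was not called, on 0 to 3 counts a library. Gata4 was at -0.59 ± 0.07 (edgeR, adjusted p = 5.0e-05), under the fold threshold. Onecut2 and Pdx1 were called lower than in WT, with log2 fold changes of -2.56 ± 0.15 and -4.04 ± 0.64 (edgeR, adjusted p = 2.6e-07 and 0.00028). The part of regional identity in the iron genes was not tested.

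**Figure D3:**
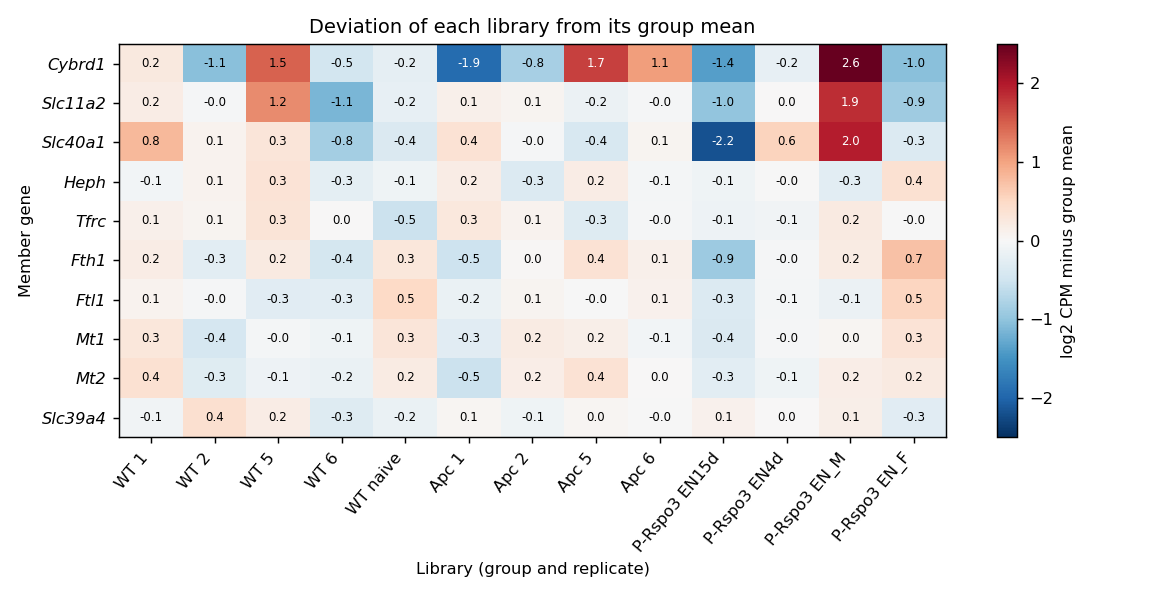
Log2 CPM of each member minus its group mean, with libraries in columns and genes in rows; red is above and blue below the mean of the library's own group. The rows of Cybrd1, Slc11a2 and Slc40a1 carry the widest deviations, up to 2.61 for Cybrd1 in EN_M, while Heph, Tfrc, Ftl1, Mt1, Mt2 and Slc39a4 stay between -0.538 and 0.533.

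Among the P-Rspo3 comparisons with WT, 0 of 10 members were called and 0 had an unadjusted p under 0.05 in edgeR, a level that 13.5% of all genes passed. In TMM-scaled CPM 0 of 10 had groups without overlap, beside 2.35% of all genes higher and 2.49% lower without overlap. Of all 15992 genes tested, 0.00625% were called higher, which is 1 gene, Rspo3, and 0% were called lower. The same held on adjusted p alone. This background rests on the tool and on 1 library, since DESeq2 called 228 genes and edgeR without the dox-naive library called 266. Neither called a member. On simulated counts the same edgeR fit recovered 197 of 200 randomly drawn genes changed 4-fold. That setting does not carry over to members as variable as Cybrd1 and Slc11a2, which went uncalled at -2.69 and -2.15 without EN_M. The median log2 fold change was -0.28 over the members and 0.0041 over all genes.

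The comparison of Apc with P-Rspo3 sets mutants in the same EN medium side by side. Their organoids differ in source and doxycycline treatment, which cannot be told apart from genotype here. It shares its Apc libraries with the first comparison and its P-Rspo3 libraries with the second, so its values are given beside theirs and not as separate support. Mt1 had a log2 fold change of -3.38 ± 0.18 and Mt2 of -3.68 ± 0.21 (edgeR, adjusted p = 8.3e-07 and 1.3e-06), beside -3.37 and -3.64 against WT. Slc39a4 was higher in Apc by 2.07 ± 0.10 (edgeR, adjusted p = 4.2e-07) and Tfrc by 1.11 ± 0.13 (edgeR, adjusted p = 9.0e-05), which was a call here. Heph differed by -1.40 ± 0.16 (edgeR, adjusted p = 7.6e-05), Fth1 by -1.58 ± 0.32 (edgeR, adjusted p = 0.0022) and Ftl1 by -0.82 ± 0.18 (edgeR, adjusted p = 0.0034), the last under the fold threshold. The metallothioneins, Heph and Fth1 were thus lower in Apc than in P-Rspo3 too, where no group received added RSPO1. The P-Rspo3 organoids expressed Rspo3 themselves, at 539 to 1079 counts beside 7 to 57 in Apc. The part of R-spondin or medium in these differences was not tested.

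The uptake genes had larger errors in this comparison. Cybrd1 differed by -5.95 ± 1.16 (edgeR, adjusted p = 0.0018) and without EN_M by -4.19 (adjusted p = 0.0016, in a range of 3.5e-07 to 0.0070 over 19 settings). Slc11a2 differed by -1.78 ± 0.59 (edgeR, adjusted p = 0.0276), and the call was lost in 7 of 18 alternatives. Without EN_M its log2 fold change was -0.72 (adjusted p = 0.0266), and without any single Apc library the adjusted p was 0.0563 to 0.0671, in a range of 0.0111 to 0.116 over 19 settings. Slc40a1 differed by -0.33 ± 0.66 (edgeR, adjusted p = 0.715). Its sign turned without EN_M, to 0.63 (adjusted p = 0.339, range 0.244 to 0.855), and with limma on log2(FPKM + 1) and log2(FPKM + 0.1), to 0.28 and 0.32.

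For Apc against P-Rspo3, 2 members were called higher and 6 lower, beside 13.4% and 13.3% of 16456 genes tested. On adjusted p alone the members' counts were 2 and 7, beside 28.7% and 27.7% of all genes. The median log2 fold change was -1.49 over the members and 0.00066 over all genes. In TMM-scaled CPM 9 of 10 had no overlap between the groups, 7 lower and 2 higher, with Slc40a1 again the exception, beside 26.4% of all genes lower and 27.6% higher without overlap. The enterocyte list was called lower in 12 of 12 genes here as well, and its part in the members' changes was not tested.

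**Figure D4:**
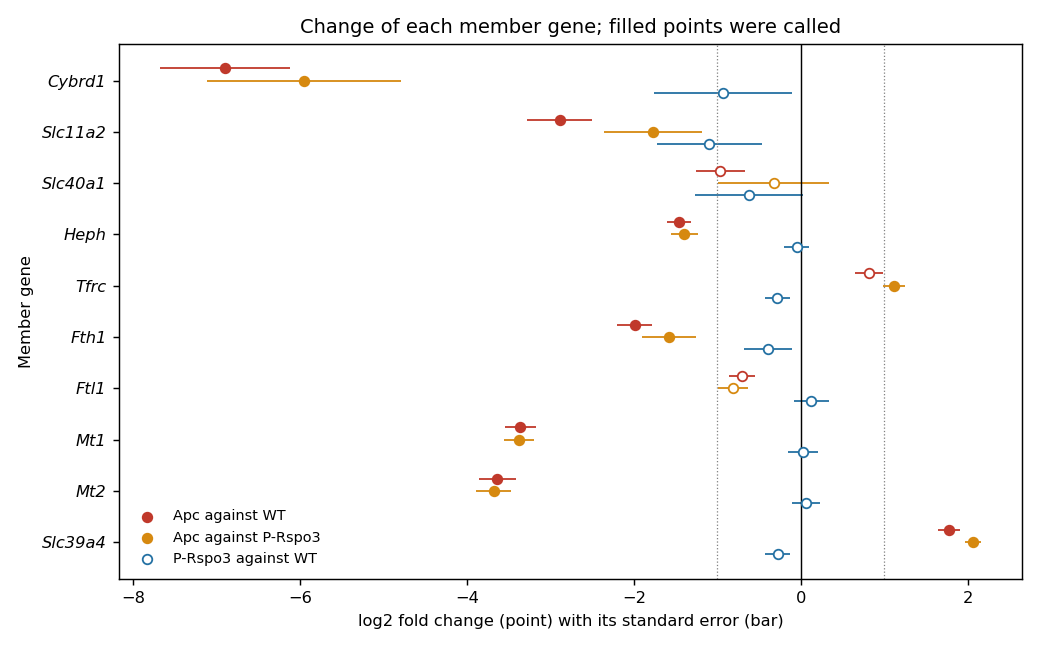
Log2 fold change of each member (point) with its standard error (bar) in the 3 comparisons; filled points were called, and dotted lines mark the fold threshold of 1. Blue points of P-Rspo3 against WT are all open, while red and orange points of Apc lie to the left in 8 members and to the right in Tfrc and Slc39a4.

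Within groups, members differed in how alike they were. After the group means were subtracted, log2 CPM of Mt1 and Mt2 had a Pearson r of 0.885 over 13 libraries, and leaving out any 1 library kept it at 0.869 to 0.910. Slc40a1 and Slc11a2 had an r of 0.827, or 0.647 without EN_M, and Fth1 and Mt1 had 0.821. The lowest of the 45 pairs was Mt1 and Slc39a4 at -0.630. These are descriptions over libraries that share cultures, depth and cell makeup.

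The wider pathway was read from lists of other genes. Of 40 iron genes tested in Apc against WT, 5 were called higher and 11 lower, with a list median of -0.34. Over all genes tested, 12.2% were called higher and 14.1% lower. The 5 with the largest change included Tfr2, a sensor of transferrin, at -4.24 ± 0.84 (edgeR, adjusted p = 0.0013) on no more than 99 counts in any grouped library. Ltf (lactoferrin) was at 3.96 ± 0.59 and Slc22a17, a receptor for lipocalin, at 3.36 ± 0.27, on 1 to 18 and 7 to 15 counts a library in WT and 70 to 328 and 105 to 211 in Apc. Epas1 (HIF-2α), the factor known to drive duodenal iron uptake genes, was lower by -3.20 ± 0.23 (edgeR, adjusted p = 7.7e-07), at 8.70 ± 1.97 FPKM in WT (n = 5), 9.57 ± 0.485 in P-Rspo3 (n = 4) and 1.16 ± 0.217 in Apc (n = 4). Abcg2, an exporter of haem and other compounds, differed by -2.74 ± 0.12 (edgeR, adjusted p = 2.7e-08).

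Of the iron regulatory proteins, Aco1 was lower on adjusted p and Ireb2 did not pass the test. Ireb2 (iron regulatory protein 2) had a log2 fold change of -0.07 ± 0.06 (edgeR, adjusted p = 0.337) in Apc against WT. Aco1 (iron regulatory protein 1, also an aconitase) was lower by -0.99 ± 0.08 (edgeR, adjusted p = 1.4e-06), just under the fold threshold.

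Of 22 zinc genes tested in Apc against WT, 3 were called higher and 5 lower, beside 12.2% and 14.1% of all genes. The list median was -0.19. Slc39a5, a basolateral zinc importer, had the largest fall, from 64.6 ± 11.8 FPKM in WT (n = 5) to 0.0976 ± 0.0896 in Apc (n = 4), a log2 fold change of -7.86 ± 0.22 (edgeR, adjusted p = 2.9e-09). In P-Rspo3 it stood at 68.0 ± 5.50 FPKM (n = 4). Slc30a10, an exporter known best for manganese, was at -4.97 ± 0.50 and the metallothionein Mt4 at -4.82 ± 0.41 (edgeR, adjusted p = 1.0e-05 and 3.1e-06). The importer Slc39a10 was higher by 3.41 ± 0.25 (edgeR, adjusted p = 9.0e-07), so zinc importers were found among the higher and among the lower genes. Mt3 was higher by 4.10 ± 0.88 (edgeR, adjusted p = 0.0020), opposite to Mt1, Mt2 and Mt4, but its Apc libraries had 16, 49, 113 and 493 counts and FPKM of 1.02 to 28.9, far below the 347 to 824 FPKM of Mt1 and Mt2. Slc30a1, a zinc exporter known as a target of Mtf1 and named after its values were seen, was lower by -1.82 ± 0.10 (edgeR, adjusted p = 1.1e-07). Mtf1 itself differed by -0.44 ± 0.07 (edgeR, adjusted p = 0.00017), at 6.82 ± 1.36 FPKM in WT (n = 5) and 6.16 ± 0.412 in Apc (n = 4).

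Copper genes were seldom past the fold threshold, although their list median was -0.44. Of 17 tested, 0 were called higher and 1 lower, beside 12.2% and 14.1% of all genes. The gene called was Cox19, an assembly factor of cytochrome c oxidase, at -1.02 ± 0.07 (edgeR, adjusted p = 6.9e-07). An unadjusted p under 0.05 in edgeR was reached by 13, and by 62.8% of all genes. On adjusted p alone 2 were higher and 10 lower, beside 30.0% and 29.0% of all genes. Of 12 hypoxia-response genes, 0 were called higher and 1 lower, Ndrg1 at -1.58 ± 0.21 (edgeR, adjusted p = 7.5e-05). An unadjusted p under 0.05 in edgeR was reached by 7 of 12, beside 62.8% of all genes. In P-Rspo3 against WT no gene of the iron, copper, zinc or hypoxia-response lists was called in edgeR. Of the 39, 17, 21 and 12 tested, 1, 2, 2 and 2 genes had an unadjusted p under 0.05 in edgeR, beside 13.5% of all genes. DESeq2 called the zinc transporter genes Slc30a10 and Slc30a3 lower, at -1.17 and -1.28 (adjusted p = 0.0126 and 0.0469).

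**Figure D5:**
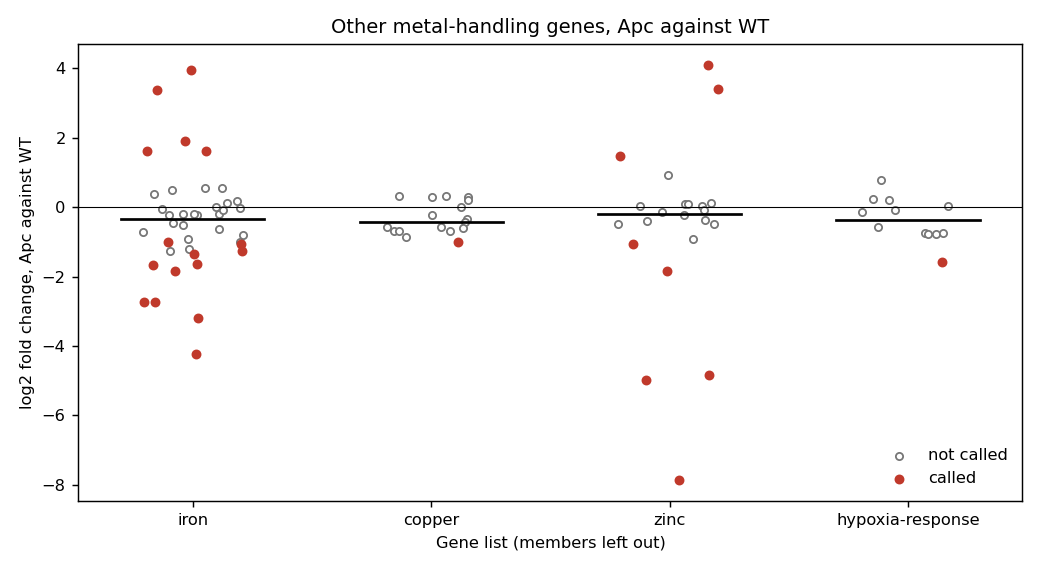
Log2 fold change of Apc against WT for each tested gene of the iron (40), copper (17), zinc (22) and hypoxia-response (12) lists, with the 10 members left out; filled red points were called and the black bar is the list median. The zinc list spans from -7.86 (Slc39a5) to 4.10 (Mt3), while the lowest copper point is Cox19 at -1.02.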

How the data were processed

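RNA-seq libraries were made from total RNA of organoids. Per the labels and the study's methods, the authors checked reads with FastQC, aligned them to GRCm38 with STAR in 2 passes, counted reads per gene with HTSeq 0.6.0 (the deposited count table, raw counts) and estimated FPKM with Cufflinks 2.2.1 (the deposited FPKM table). Strand, treatment of reads with several matches and annotation release were not given in the sources used here. Of 43629 identifiers, 42462 matched a symbol.

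Genes with FPKM of at least 0.1 in as many libraries as the smaller group held were tested with edgeR 4.0.16 (TMM, quasi-likelihood, R 4.3.3), p-values were adjusted over all genes tested (Benjamini-Hochberg), and a call needed an adjusted p below 0.05 with a log2 fold change beyond 1 in either direction. Standard errors are the absolute log2 fold change divided by the square root of F. Each comparison used the libraries of its own 2 groups, and nothing says whether libraries within P-Rspo3 came from separate animals, so p-values cover the spread between these libraries. On simulated counts 198, 197 and 194 of 200 genes changed 4-fold were recovered in Apc against WT, P-Rspo3 against WT and Apc against P-Rspo3. The changed genes were drawn at random, so these figures do not give the recovery for the most variable members.

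The WT and Apc libraries with the same number come from the same line by their labels, which pairs them. Once group means were taken off, libraries sharing a number correlated at -0.0306 to 0.207, against -0.181 to 0.14 for other pairs. The replicate block, which drops the dox-naive library, gave 1 member called higher and 6 lower and changed no call.

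The members and lists were chosen with earlier results of these data known. The genes named were all members, from each pathway list up to 5 called genes with the largest change in Apc against WT and every gene called in P-Rspo3 against WT, and Mtf1, Ireb2, Aco1, Rspo3 and Apc. Slc30a1, Slc30a3, the region markers (Gata4, Onecut2, Pdx1, Fabp6 and Slc10a2) and the other markers named fall outside this rule and were chosen after their values were seen or from marker lists. Promoters came from RefSeq and transcripts from GENCODE, both on GRCm38. DESeq2 1.42.0, limma 3.58.1 and other filters were tried as alternatives. Depth per library was 27466904 to 35528495 counts over all 15 libraries.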

Additional observations from a re-analysis of the deposited data

Results flagged for a closer look

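In P-Rspo3, the library EN_M stood apart in 2 members. Slc11a2 was at 582.1 CPM there and at 81.8 to 163 CPM in the other 3 libraries, and Cybrd1 was at 314.9 CPM against 19.96 to 44.7 CPM. The gap to the next library, divided by the range of the group, was 0.838 and 0.916, over Dixon's 95% critical value for 4 libraries. The rule was applied to CPM and not to log values, on which spreads differ. It also left out NAIVE_F, whose genotype field gives P-Rspo3. That library had 300 CPM for Slc11a2 and 173 CPM for Cybrd1, between EN_M and the rest. The flag therefore holds only for this scale and these 4 libraries. Of 30 groups of values examined (10 members in 3 groups), 2 were past it, and chance gives about 1 in 20 (0.05). The values of the 3 iron transport genes with and without EN_M stand in the report.

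The library LIPO, which was placed in no group although its genotype field gives dox-naive WT, exceeded the highest WT library in 4 members. Slc40a1 was at 348.3 CPM (WT 78.0 to 246 CPM), Fth1 at 3942 CPM (WT 1990 to 3265), Ftl1 at 1231 CPM (WT 681 to 1172) and Mt1 at 3838 CPM (WT 2192 to 3646). The library NAIVE_F, also in no group, exceeded WT in none of the 10.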

How the results depend on the processing

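In Apc against WT the count of members called higher was 2 in place of 1 with limma on log2(FPKM + 1), with limma on log2(FPKM + 0.1) and on adjusted p alone. Tfrc was the added gene. The other counts of members stayed within 1.5 times in each comparison and alternative, including DESeq2, no FPKM filter, a filter at FPKM 1 and each library left out in turn, and the replicate block (1 higher, 6 lower) changed no call. Over all genes, 1 was called in P-Rspo3 against WT, with 228 in DESeq2, 74 with all 3 groups in 1 fit, 13 without the FPKM filter, 7 and 3 with limma, 6 in the newer edgeR form, 0 with NAIVE_F in WT and 1 to 266 with a library left out. In Apc against WT 4412 genes were called, with 2550 by limma on log2(FPKM + 1), 2834 at FPKM 1 and 9892 on adjusted p alone, and in Apc against P-Rspo3 4392, with 2554, 2797 and 9276. Single members changed side in 18 cases. Slc11a2 in Apc against P-Rspo3 lost its call in 7, in 2 of them with limma (-1.01 and -1.03) and in 5 with 1 library left out. Slc40a1 in Apc against WT gained one in 6, Tfrc in Apc against WT in 3, and Ftl1 on adjusted p alone in both comparisons of Apc. The limma scales moved the median of all genes by 0.17 and 0.28 in Apc against WT and by 0.16 and 0.25 in Apc against P-Rspo3, and the share of calls that were higher went from 46.4% to 55.6% and 59.9% in the first and from 50.3% to 56.0% and 61.2% in the second. The cause was not tested. Of the 30 mean levels, 23 moved by more than 1 SD when CPM per kilobase of exon replaced FPKM, with ratios of 0.856 to 4.21. Depth is no limit for most members, but Cybrd1 in Apc rests on 11 to 132 counts a library.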

Other observations

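The libraries LIPO and NAIVE_F, which were placed in no group here (genotype fields dox-naive WT and P-Rspo3), held the following levels. In LIPO, Mt1 was at 7551 FPKM, Mt2 at 6117, Fth1 at 3874, Ftl1 at 1463, Slc11a2 at 145, Slc40a1 at 133, Tfrc at 96.6, Heph at 26.4, Cybrd1 at 15.2 and Slc39a4 at 10.3. In NAIVE_F, Mt1 was at 6306 FPKM, Mt2 at 5459, Fth1 at 3071, Ftl1 at 890, Slc11a2 at 111, Tfrc at 80.6, Slc40a1 at 65.9, Cybrd1 at 26.5, Heph at 23.4 and Slc39a4 at 11.3. Rspo3 had 729 counts in NAIVE_F and 0 in LIPO.

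Within the metallothionein family the ratio of Mt1 to Mt2 FPKM was 1.08 to 1.22 in WT, 1.04 to 1.22 in P-Rspo3 and 1.25 to 1.73 in Apc, where line 1 had the highest value. The ratio of Tfrc to Fth1 FPKM was 0.0205 to 0.0457 in WT, 0.0244 to 0.0717 in P-Rspo3 and 0.169 to 0.408 in Apc. These ratios are descriptions within libraries and were not tested. Mt4 was at 534 FPKM in EN_F and at 184 to 207 FPKM in the other 3 P-Rspo3 libraries.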
